A study of Homo sapiens with 6 samples.

Results

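The retinoid genes described here are 6 genes of retinoid uptake, binding, conversion and breakdown, or genes named for their induction by retinoids. They are STRA6, CRABP2, RETSAT, CYP26B1, RARRES2 and TGM2, chosen by gene symbol among the 22258 symbols of the table. The list had 7 genes, and RARRES1 was not analysed here. RNA was sequenced from SW480, a human colon cancer cell line, in 3 samples with the genotype ALDH1B1 KD and 3 control samples, which have SCR and CONTROL in their titles and WT as genotype. Treatment is given as none for all 6. Both groups are numbered 4, 5 and 6. No source used here says how the knockdown was made, or whether each group is a single clone or a pool of cells. Nothing states that the numbered samples came from separate cultures, so the p-values cover a spread that may be technical.

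Retinol reaches cells bound to a carrier protein in blood, and STRA6 takes it up through the cell membrane. Inside the cell, retinol is oxidised to retinal and then, by aldehyde dehydrogenases, to retinoic acid, the form that acts on genes. ALDH1B1, a mitochondrial aldehyde dehydrogenase, is among the enzymes that can oxidise retinal. CRABP2 carries retinoic acid to its nuclear receptors, which switch on target genes, and the CYP26 enzymes hydroxylate retinoic acid and so clear it. In the intestinal epithelium retinoic acid is known for promoting differentiation.

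Values are RPM, the reads-per-million of a library, and libraries held about 20330000 to 28560000 reads. ALDH1B1 itself averaged 36.8 ± 2.76 RPM in control samples (SD, n = 3) and 21.2 ± 1.74 in knockdown samples (SD, n = 3), with no overlap. Control replicate 6 lay apart from the other controls on the second principal component, and it was the lowest control for 69.02% of all genes tested. All genes together held 65.1% of its reads, against 70.3% and 71.1% in control replicates 4 and 5, and 67.2% to 70.7% in the knockdown. Of 9 colon epithelial markers in the table, EPCAM, KRT8, KRT18, KRT19, CDX2 and VIL1 were tested, while KRT20, LGALS4 and GPA33 had means of at most 0.182 RPM, about the level of 3 reads. EPCAM and VIL1 rose, from 110.4 to 206 and from 5.82 to 21.7 RPM, and CDX2, a transcription factor of the intestinal epithelium, fell from 54.3 to 32.1. No marker was at 0 in all samples, which says little, since none of the 22258 symbols was. Summed markers of other cell types were low, but the sums cover only part of each list. They hold 3 of 8 fibroblast and 4 of 7 leukocyte markers. For endothelium and blood they hold 5 of 7, and for liver and kidney 2 of 7. Fibroblast markers reached 4.18 to 5.74 RPM in the control and 5.37 to 7.03 in the knockdown, and leukocyte markers 2.14 to 3.01 and 1.43 to 2.15. Endothelial and blood markers reached 2.45 to 2.80 and 1.34 to 6.60, and liver and kidney markers, nearly all of it PAX8, 10.5 to 12.7 and 20.99 to 21.49. The part of these markers in the results was not tested.

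Of the 6 retinoid genes, 5 rose in the knockdown and 0 fell. RARRES2 and CYP26B1, both expressed at low levels, had the largest differences, and STRA6, RETSAT and CRABP2 rose by smaller steps. TGM2, the most strongly expressed of them per length, was the gene that did not pass the test. A gene is said to have risen or fallen where limma's adjusted p over the 15496 genes tested was under 0.05. By that rule 22.6% of all genes tested rose and 19.2% fell, which is 3508 and 2972 genes. The balance turned without control replicate 6, when 3057 rose and 3738 fell, and under quantile normalization, when 3420 rose and 3890 fell. It also turned when only genes averaging 3.44 RPM or more were tested, of which 2729 rose and 2823 fell. CYP26B1 passed the filter on low values only through the knockdown samples, since its control mean was under the minimum of 0.688 RPM. Of the other 5 genes, 4 rose. In RNA from a whole culture, fewer cells that express a gene and less RNA per cell cannot be told apart.

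**Figure D1:**
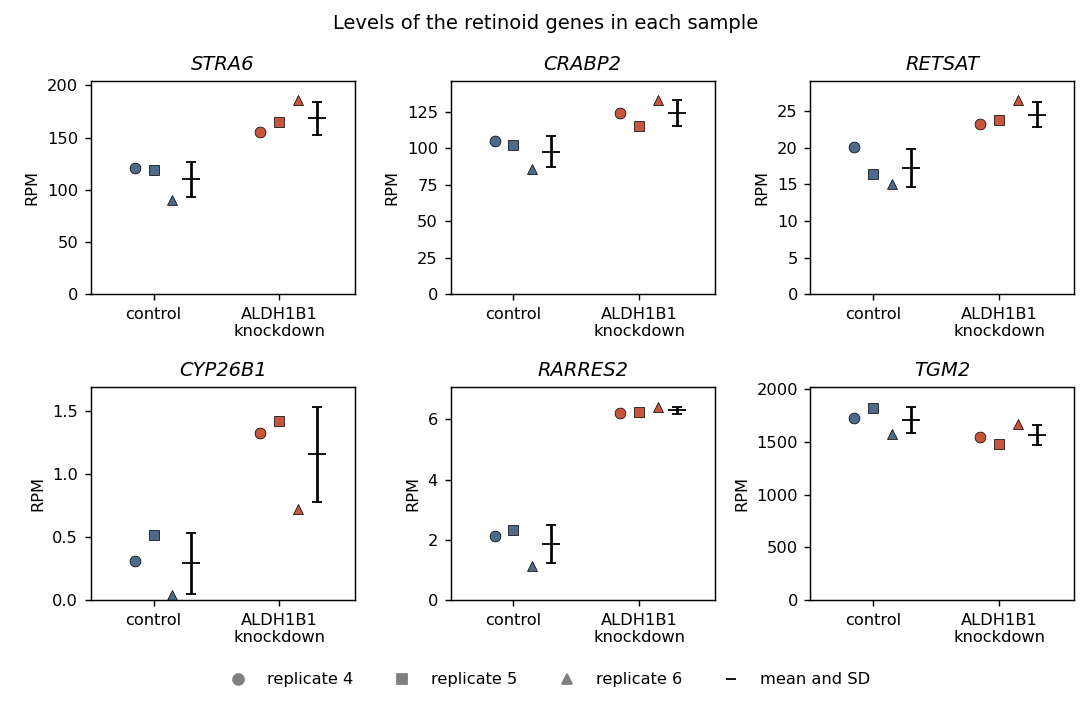
RPM of each retinoid gene in the 3 control and 3 knockdown samples. Points are samples, with the shape giving the replicate number, and the bar beside them is the mean with its SD. Knockdown samples lie above every control sample for STRA6, CRABP2, RETSAT, CYP26B1 and RARRES2, and the groups overlap for TGM2.

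STRA6, the membrane receptor that brings retinol into the cell, rose 1.53-fold. Its transcript (chromosome 15, 74471807 to 74504609 on the minus strand, by the deposited positions, whose build could not be matched to the hg38 the submitters name) was at 121, 119 and 90.4 RPM in control replicates 4, 5 and 6. Knockdown replicates 4, 5 and 6 had 155, 165 and 186 RPM. Every knockdown sample was therefore above every control sample, with control replicate 6 the lowest of all. Control samples averaged 110.0 ± 16.98 RPM and knockdown samples 168 ± 15.6 (SD, n = 3 each). On the log2 scale the difference was 0.62 (SE 0.0941, limma adjusted p = 9.45e-06), and it was 0.49 without control replicate 6. Between about 2126 and 4853 reads stood behind each value. A long non-coding gene on the opposite strand, RP11-60L3.1, overlaps STRA6 over 9564 bases and had a mean of 2.13 RPM. No source used here says whether the counting used strand, so a small share of reads could belong to either.

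CRABP2, the carrier that hands retinoic acid to its nuclear receptor, rose 1.27-fold, the smallest of the 5 rises. The gene (chromosome 1, 156669398 to 156675609, minus strand) was at 105, 102 and 85.7 RPM in control replicates 4, 5 and 6, and at 124.1, 115 and 133 in knockdown replicates 4, 5 and 6. The groups did not overlap, but the gap between them was narrower than the range within either group. The means were 97.7 ± 10.5 and 124.1 ± 8.71 RPM (SD, n = 3 each), for a log2 difference of 0.35 (SE 0.0839, limma adjusted p = 0.00167). Without control replicate 6 it was 0.26 (adjusted p = 0.00489).

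RETSAT, the enzyme that saturates a double bond of retinol and so makes dihydroretinol, rose 1.42-fold. The gene (chromosome 2, 85569211 to 85581744, minus strand) was at 20.1, 16.5 and 15.1 RPM in control replicates 4, 5 and 6. Knockdown replicates 4, 5 and 6 had 23.2, 23.8 and 26.4 RPM. The groups did not overlap, and control replicate 4 came nearest to the knockdown. The means were 17.2 ± 2.60 and 24.5 ± 1.73 RPM (SD, n = 3 each), for a log2 difference of 0.52 (SE 0.106, limma adjusted p = 0.000356). Its neighbour ELMOD3, on the opposite strand and overlapping by 228 bases, rose by 1.01 on the log2 scale.

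CYP26B1, an enzyme that hydroxylates retinoic acid for removal, was expressed near the detection limit and was higher in the knockdown. The gene (chromosome 2, 72356367 to 72375168, minus strand) had 0.315, 0.522 and 0.0425 RPM in control replicates 4, 5 and 6, from about 9, 11 and 1 reads. In knockdown replicates 4, 5 and 6 it had 1.33, 1.42 and 0.726 RPM, from about 28, 29 and 19 reads. The groups did not overlap, but knockdown replicate 6 lay close to control replicate 5. Summed over samples, 76 reads against 21 gave a ratio of 3.92, with an exact 95% interval of 2.39 to 6.69 that covers counting error only. Without control replicate 6 the ratio was 2.79 (interval 1.69 to 4.83). On the log2 scale the difference was 2.54 (SE 0.644, limma adjusted p = 0.00258). It depends on the single read of control replicate 6, and was 1.46 without that sample and 1.09 with an offset of 0.5 RPM. The call was lost with either of the other variance priors tried (adjusted p = 0.0641 and 0.0637).

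RARRES2, which encodes chemerin, a secreted protein that attracts immune cells and was first described as a retinoid-responsive gene of skin, rose 3.37-fold. The gene (chromosome 7, 150035408 to 150038764, minus strand) was at 2.13, 2.32 and 1.15 RPM in control replicates 4, 5 and 6. The 3 knockdown samples lay close together, at 6.22, 6.24 and 6.42 RPM in replicates 4, 5 and 6. The lowest knockdown sample was well over the highest control. The means were 1.87 ± 0.632 and 6.29 ± 0.111 RPM (SD, n = 3 each), for a log2 difference of 1.82 (SE 0.210, limma adjusted p = 2.13e-07). This difference ranked 112 among the 15496 genes tested, counted from the largest rise. It was 1.499 without control replicate 6, which had about 27 reads against 49 and 61 in the other controls.

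TGM2, tissue transglutaminase, which cross-links proteins and is a classical retinoic acid-induced gene, did not differ past the threshold. The gene (chromosome 20, 36756863 to 36794981, minus strand) was at 1729, 1823 and 1576 RPM in control replicates 4, 5 and 6. Knockdown replicates 4, 5 and 6 had 1541, 1483 and 1669 RPM. The ranges overlapped in these RPM, since control replicate 6, the lowest control for most genes tested, was below knockdown replicate 6. The means were 1709 ± 124.6 and 1565 ± 95.3 RPM (SD, n = 3 each), for a log2 difference of -0.13 (SE 0.0858, limma adjusted p = 0.245). The 95% interval ran from -0.30 to 0.05, which leaves out a rise of the size seen for STRA6. With about 30154 to 49379 reads per sample, counting error was small here. Median of ratios scaling gave control replicate 6 a factor of 0.937, against 1.03 and 1.04 for the other controls. With that scaling the log2 difference of TGM2 was -0.13 (limma adjusted p = 0.0714).

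Exact two-sided permutation tests of the 6 values gave p = 0.1 for each of the 5 genes that rose, the smallest that 3 against 3 samples allow, and p = 0.2 for TGM2. In these 5 the groups did not overlap. Over all genes tested, 26.5% had every knockdown sample above every control sample, and 51.0% did not overlap in either direction. Among the controls, replicate 6 was the lowest for all 6 retinoid genes, as it was for most genes tested. Among the knockdown samples, replicate 6 was the highest for 5 of the 6, against 51.4% of genes tested, with CYP26B1 the exception. The 5 rises were still called without control replicate 6, when 19.7% of all genes tested rose.

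**Figure D2:**
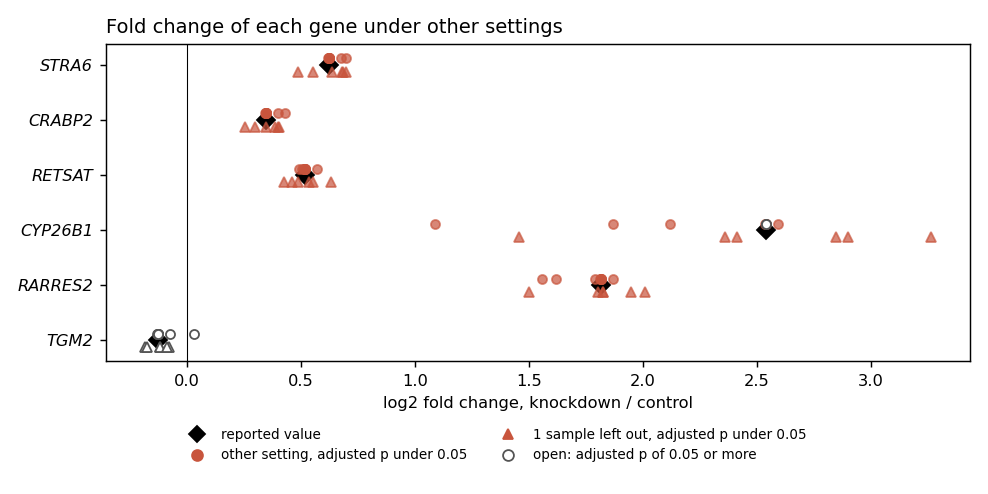
Log2 fold change (knockdown over control) of each retinoid gene as reported (diamond), under other scalings, filters, offsets and models (circles), and with 1 sample left out (triangles). Open symbols had an adjusted p of 0.05 or more. STRA6, CRABP2, RETSAT and RARRES2 stay above 0 with filled symbols throughout, CYP26B1 spans 1.09 to 3.26, and TGM2 stays near 0.

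Divided by exon length (the union of exons in GENCODE 29, whose gene models may differ from those of the table), the level ordered the genes the same way in both groups. TGM2 stood highest in the control, at 337 ± 24.6 RPM per kilobase, before CRABP2 at 88.9 ± 9.58 and STRA6 at 20.1 ± 3.10. RETSAT followed at 5.55 ± 0.839, RARRES2 at 1.11 ± 0.374 and CYP26B1 at 0.0609 ± 0.0499 RPM per kilobase (SD, n = 3 each). The ranges of neighbours in this order did not overlap, in the control or in the knockdown. In the knockdown the levels were 309 ± 18.8 RPM per kilobase for TGM2, 113 ± 7.92 for CRABP2, 30.7 ± 2.85 for STRA6, 7.90 ± 0.559 for RETSAT, 3.73 ± 0.0656 for RARRES2 and 0.241 ± 0.0787 for CYP26B1. Among these 6 genes, STRA6 and CRABP2 were thus expressed well above the breakdown enzyme CYP26B1 in these cells.

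Since retinoid receptors bind pairs of a 6-base word, the 250 bases before the transcription start were searched on both strands for AGGTCA with its variant GGGTCA, then for AGTTCA with its variant GGTTCA. RefSeq promoter windows (GRCh38.p14) were matched for 5 of the 6 genes. Of all 35116 windows of this length, 33.8% held at least 1 of the words and 7.80% at least 2. Shown here are the windows of STRA6 and RARRES2, because they are the windows among these genes that held more than 1 word. Capitals mark the words, read 5′ to 3′ along the gene's strand, and TGACCT is AGGTCA on the other strand. The STRA6 window is chr15:74212260-74212509 and the RARRES2 window is chr7:150341630-150341879, both on the minus strand.
STRA6: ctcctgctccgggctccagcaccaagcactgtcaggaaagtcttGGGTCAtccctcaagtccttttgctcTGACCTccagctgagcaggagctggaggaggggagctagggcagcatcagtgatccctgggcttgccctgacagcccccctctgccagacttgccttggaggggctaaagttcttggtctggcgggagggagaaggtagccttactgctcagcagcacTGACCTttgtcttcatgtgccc
RARRES2: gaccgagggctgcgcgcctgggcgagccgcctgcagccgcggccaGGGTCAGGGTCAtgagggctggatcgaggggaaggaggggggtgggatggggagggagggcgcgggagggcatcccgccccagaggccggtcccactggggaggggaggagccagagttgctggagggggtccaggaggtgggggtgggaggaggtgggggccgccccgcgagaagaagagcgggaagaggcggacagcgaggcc
In STRA6 the words began 206, 180 and 22 bases before the start, the first on the gene's strand and the other ones on the opposite strand. In RARRES2 a pair of GGGTCA words followed each other without a gap, beginning 205 and 199 bases before the start. A pair without a gap, which was looked for only after this sequence was seen, was held by 0.145% of all windows. CRABP2 held 1 word, GGTTCA, 249 bases before the start, and RETSAT held GGGTCA 147 bases before it. CYP26B1 held none in this window. Direct repeats with 1, 2 or 5 bases between the words are among the arrangements known for retinoid receptors. A pair at any of these spacings was held by 0.202% of all windows and by no window of these genes. Apart from the pair without a gap, other spacings were not counted. Of 4 further STRA6 windows at other starts, 1 held a single word. These matches describe letters in a window and do not show binding.

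Chromosome position was measured beside each gene, because large parts of chromosomes 2, 3 and 7 were higher in the knockdown. These parts were known from earlier results of these data, so the shares inside and outside them are no test. On chromosome 2 up to 130 Mb, 71.4% of 587 genes tested rose, with a median log2 fold change of 0.47, and on chromosome 7 beyond 120 Mb 62.6% of 198 rose, with a median of 0.42. In the rest of the genome, outside these and the first 70 Mb of chromosome 3, 19.1% rose and the median was -0.03. That rest was not uniform. On the whole of chromosome 7, which includes the part beyond 120 Mb, 341 of 792 tested genes other than RARRES2 rose, with a median of 0.23. RETSAT, CYP26B1 and RARRES2 lie in these regions, while STRA6, CRABP2 and TGM2 do not. Of the 5 rises, 3 were inside and 2 outside.

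RETSAT lay near the middle of its neighbours. Of the 44 tested genes within 5 Mb of it, 35 rose and 0 fell, their median difference was 0.47 on the log2 scale against 0.52 for RETSAT, and 25 of them lay below it. RARRES2 lay above all 53 of its tested neighbours, whose median was 0.49 and of which 41 rose and 0 fell. CYP26B1 lay above 80 of 82 neighbours with a median of 0.43, of which 63 rose and 0 fell. After the neighbours' median was subtracted, 0.04 remained for RETSAT, 1.33 for RARRES2 and 2.10 for CYP26B1, on the log2 scale. Without control replicate 6 these became -0.03, 1.07 and 1.06. With an offset of 0.5 RPM, 0.66 remained for CYP26B1, which still lay above 78 of its 82 neighbours.

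Around STRA6 and CRABP2 the neighbours were centred near 0. STRA6 had 91 tested neighbours with a median log2 fold change of 0.003, of which 16 rose and 10 fell, and it lay above 81 of them. Its nearest neighbour to the left, ISLR, rose by 1.07. CRABP2 had 156 neighbours with a median of -0.01, of which 39 rose and 35 fell, and lay above 115. TGM2 had 84 neighbours with a median of -0.06, of which 14 rose and 16 fell. The part of chromosome position in the 3 rises on chromosomes 2 and 7 was not tested.

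**Figure D3:**
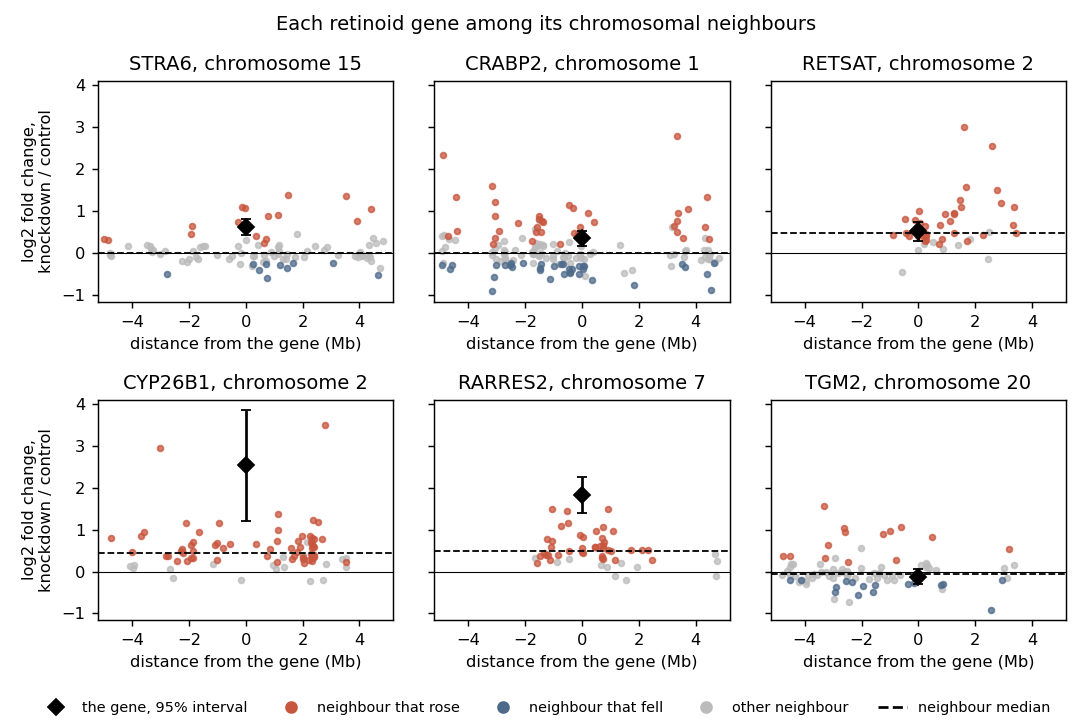
Log2 fold change (knockdown over control) of each retinoid gene (diamond, with its 95% interval) and of the tested genes within 5 Mb of it, by distance in Mb. Red neighbours rose, blue ones fell, and the dashed line is their median. RETSAT lies at its neighbours' median of 0.47, RARRES2 and CYP26B1 lie far above theirs, and the neighbours of STRA6, CRABP2 and TGM2 centre near 0.

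The other genes of the retinoid pathway went in both directions. Across 8 lists, 77 of 114 genes had a row in the table and 68 were tested, of which 23 rose and 15 fell. That is 55.9% changed, against 41.8% of all genes tested. Their median log2 fold change was 0.12, against 0.0007 for all genes tested and 0.57 for the 6 retinoid genes. These medians are no test, since the 6 genes and the lists were chosen with earlier results of these data known. The 0.57 also includes CYP26B1, which passed the filter only through the knockdown samples, and RETSAT and RARRES2, which like it lie in shifted regions. In the shifted regions of chromosomes 2, 3 and 7 lay 5 of the 23 that rose, namely PLB1, RDH14, NCOA1, MEIS1 and BHLHE40, and no other listed gene was tested there.

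Among the carriers, 3 of 6 tested genes rose and 1 fell. LRP2, megalin, the receptor that takes up carrier-bound retinol in kidney, rose from 3.44 ± 0.549 to 11.4 ± 1.19 RPM, or 1.74 on the log2 scale (SE 0.145, limma adjusted p = 9.87e-10). RBP7, a cellular retinol-binding protein, rose by 0.72, and RLBP1, the retinal-binding protein of the eye, by 0.55. FABP5, the fatty acid-binding protein that can carry retinoic acid to a different receptor, PPARD, fell from 14.0 ± 1.70 to 9.16 ± 0.661 RPM, or -0.60 on the log2 scale (adjusted p = 0.000199). The call of RBP7 was lost without control replicate 6 (adjusted p = 0.0631) or knockdown replicate 5 (0.0648). CRABP2 and FABP5, carriers to different nuclear receptors, therefore moved in opposite directions. RBP5 had 0.699 ± 0.0608 and 0.9499 ± 0.0326 RPM (adjusted p = 0.293).

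Of 10 tested genes of retinol storage and carotenoid handling, 3 rose and 2 fell. PLB1, a phospholipase that also splits retinyl esters in the gut, rose from 2.59 ± 0.340 to 11.8 ± 0.922 RPM, or 2.19 on the log2 scale. It lay above 86 of its 87 neighbours on chromosome 2. PNPLA4, a retinyl ester hydrolase, rose by 0.56 and DGAT1, an acyltransferase that can esterify retinol, by 0.50. The lipoprotein lipase LPL fell by 0.64 on the log2 scale and the lipoprotein receptor SCARB1 by 0.23. The 5 changed genes became 3 without knockdown replicate 5, when DGAT1 and SCARB1 were no longer called, and SCARB1 was also lost without control replicate 4 or 5 or knockdown replicate 4. The lipases PNPLA2 and LIPE had log2 fold changes of 0.12 and 0.17 and did not pass.

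Of 12 tested enzymes that oxidise or reduce retinol and retinal, 4 rose and 3 fell, one of the falls being ALDH1B1 itself. The retinol dehydrogenases RDH5 and RDH14 and the related SDR16C5 rose by 0.66, 0.65 and 0.63, while RDH11 fell by 0.26 and the alcohol dehydrogenase ADH5 by 0.37. The 7 changed genes became 4 without knockdown replicate 4, when RDH11, SDR16C5 and RDH10 were no longer called. RDH5, whose groups overlapped, lost its call without control replicate 6 or knockdown replicate 5, and RDH11 without control replicate 4. ALDH1A3, a cytosolic enzyme that makes retinoic acid from retinal, was at 183.7 ± 31.0 RPM in the control and 190.3 ± 15.3 in the knockdown (adjusted p = 0.626). In the breakdown list CYP2S1, a cytochrome P450 that can oxidise retinoic acid, rose by 0.32, a call that was lost without knockdown replicate 6 (0.23, adjusted p = 0.113). CYP26A1, the best known retinoic acid hydroxylase and a direct receptor target, had 0.723 ± 0.421 and 1.22 ± 0.421 RPM in overlapping groups (adjusted p = 0.0794). Its log2 fold change was 0.90, above 69 of its 70 neighbours, with a control mean little over the minimum of 0.688 RPM. Both tested genes of the breakdown list, CYP26A1 and CYP2S1, were called without control replicate 5 and with the replicate number as a block in the model.

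The retinoic acid receptors RARA and RARG and their partners RXRA and RXRB did not pass the threshold, while several cofactors did. Of 14 tested receptors and cofactors 3 rose and 5 fell. RXRA was at 61.2 ± 4.70 and 60.5 ± 4.08 RPM and RARA at 26.6 ± 2.96 and 24.6 ± 2.30 (adjusted p = 0.899 and 0.405). RARG and RXRB had log2 fold changes of 0.24 and -0.22 (adjusted p = 0.0617 and 0.0616). PPARD, the receptor that FABP5 serves, rose by 0.22, and the co-repressor NCOR1 fell by 0.20 on the log2 scale. The Mediator subunit MED1 fell by 0.38 on the log2 scale, and the acetyltransferases CREBBP and EP300 by 0.32 and 0.26. NRIP1, a retinoid-induced co-repressor, rose by 0.31 and the coactivator NCOA1 by 0.28, which is less than the median of 0.49 of its neighbours on chromosome 2. The 8 changed genes became 5 without knockdown replicate 5 or 6. With median of ratios scaling they became 11, so some genes of this list that did not pass above passed there. PPARD was lost without control replicate 6 or knockdown replicate 6, and NCOA1 without either of these or knockdown replicate 5. EP300 was lost without control replicate 5 or knockdown replicate 4 or 5, and NCOR1 when any 1 sample but control replicate 6 was left out.

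Among other genes known to be induced by retinoids, 10 of 27 tested rose and 3 fell. That is 48.1% changed, against 41.8% of all genes tested, of which 22.6% rose and 19.2% fell. The median difference of the list was 0.21 on the log2 scale, against 0.0007 for all genes tested. IGFBP3, which binds insulin-like growth factors, rose from 93.3 ± 11.9 to 229.99 ± 15.6 RPM, or 1.31 on the log2 scale. Its 44 neighbours on chromosome 7 had a median of 0.23, with 22 rising and 3 falling, and it lay above 41 of them. The orphan receptor GPRC5C rose by 1.08 and its relative GPRC5A, first found as a retinoic acid-induced gene, by 0.37. GPRC5C had 107 neighbours on chromosome 17 with a median of 0.18, of which 40 rose and 11 fell, and lay above 99. The repressor BHLHE40 rose by 0.99, among neighbours on chromosome 3 with a median of 0.71. TNFAIP2 rose from 154 ± 19.7 to 262 ± 24.0 RPM, or 0.77 on the log2 scale, and the homeobox gene HOXB4 by 0.49. HOXB4, also on chromosome 17, had 142 neighbours with a median of 0.16, of which 50 rose and 6 fell, and lay above 106. The 3 genes that fell were GPRC5B, a relative of GPRC5A, by 0.40, RAI14 by 0.34 and the transcription factor SOX9 by 0.20 on the log2 scale. The call of GPRC5B was lost without control replicate 5 or knockdown replicate 4 or 5, and that of SOX9 without these or control replicate 4. The adhesion molecule ICAM1 had 95.5 ± 12.2 and 88.8 ± 5.05 RPM (adjusted p = 0.379). DHRS3, a retinal reductase and direct target of retinoic acid receptors, had 18.1 ± 1.40 and 19.5 ± 1.83 RPM in overlapping groups (adjusted p = 0.415). The changed genes of this list thus went in both directions, with more rises than falls, and whether the list moved as a group was not tested.

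Relatives and partners of TGM2 and RARRES2 gave few values. Among the transglutaminases and their relatives 2 were tested. F13A1, the clotting factor subunit, fell from 2.92 ± 0.266 to 0.995 ± 0.173 RPM, or -1.56 on the log2 scale (adjusted p = 1.03e-05), and TGM1, the enzyme of the skin barrier, had a log2 fold change of 0.58 and did not pass, though without control replicate 5 both were called. GPR1, a chemerin receptor, had 2.12 ± 0.410 and 1.73 ± 0.152 RPM (adjusted p = 0.333).

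**Figure D4:**
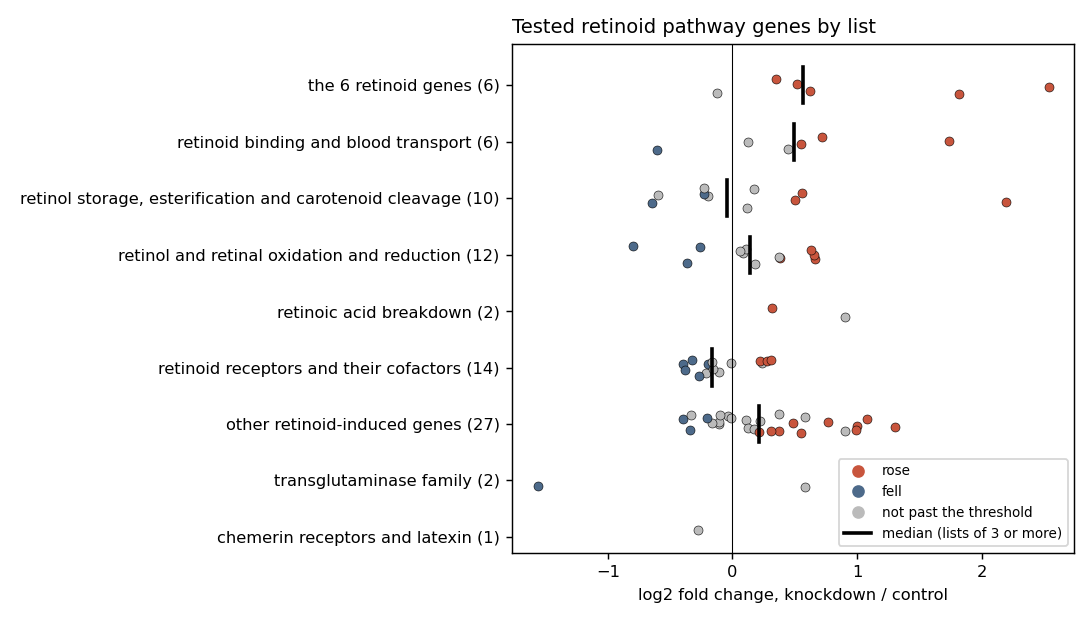
Log2 fold change (knockdown over control) of the tested genes of each retinoid list, with the number tested in brackets. Each point is a gene, red where it rose, blue where it fell and grey where it did not pass. The black bar is the median of lists with 3 or more genes. The 6 retinoid genes, chosen with earlier results of these data known, have a median of 0.57, and the receptors and cofactors centre below 0.

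Some genes on other chromosomes followed the same course over the 6 samples. Likeness was the root mean square difference between log2 values, each gene centred on its own mean, over 10904 other protein-coding genes that averaged 3.44 RPM or more. The genes nearest to STRA6 were PTK2B, ZNF169 and ARHGEF7, with differences of 0.012, 0.029 and 0.030. RARRES2 was most like RAB39B, QPRT and MYO15B, at 0.096, 0.103 and 0.127. CRABP2 was nearest to HMG20B, APPL1 and SFXN3, at 0.026, 0.027 and 0.027. RETSAT was nearest to TRIM52, CBX7 and the receptor ERBB2, at 0.036, 0.043 and 0.046, and TGM2 to DHX38, PRR11 and SAFB, at 0.006, 0.011 and 0.016. CYP26B1 had no close match, but it averaged 0.727 RPM, below the level asked of the other genes, with about 1 read in control replicate 6. Its distances therefore include counting error, and a lack of likeness cannot be told from it. The least distant, TJP3, KCNJ10 and RARRES2, differed by 0.90, 0.92 and 0.92. These likenesses are descriptions over 6 samples, in which all genes share their libraries and depth.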

How the data were processed

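RNA of 3 ALDH1B1 knockdown and 3 control samples of SW480 was sequenced from strand-specific libraries, per the labels' protocols. The deposited table of the authors gives log2 values per gene, read here from the values as log2 of RPM plus an offset of 1e-04. The submitters' processing notes name Partek, Bowtie and hg38, but the largest end on chromosome 1, 249214146, exceeds the 248937043 of GENCODE 29 on GRCh38, so positions are given as the table has them. No source used here gives the counting or its filters. RPM were recovered by undoing the log, and depth from the step between low values. Of these, 76.6% to 79.2% lay within 0.02 reads of a whole number, so read numbers are approximate and count models were not run.

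Symbols on several lines (1192) had identical values and were used once. Genes averaging 0.688 RPM or more were tested with limma 3.58.1 (R 4.3.3; lmFit, eBayes with trend, no covariates, two-sided, Benjamini-Hochberg over 15496 genes), a procedure tested on simulated data. Figures used matplotlib 3.10.9. The members and lists were chosen with earlier results of these data known. List genes named are up to 6 past the threshold with the smallest adjusted p and 2 others with the highest level, and some of these are not reported here. MEIS1, DHRS3, PPARD, NCOR1, RARG, RXRB, RDH10, GPRC5B, RAI14 and SOX9 were named after their values were seen. Samples with the same number had correlations of deviations from group means of -0.05, -0.06 and -0.13, and were not treated as pairs.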

Additional observations from a re-analysis of the deposited data

How the results depend on the processing

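Each of 16 alternatives changed 1 choice. STRA6, CRABP2, RETSAT and RARRES2 kept their direction and their call in all 16, with log2 fold changes of 0.49 to 0.70, 0.26 to 0.43, 0.43 to 0.63 and 1.499 to 2.01. CYP26B1 was 1.09 to 3.26 over 15 alternatives, with 1.46 to 3.26 when 1 sample was left out, and was not tested under the stricter filter. Its call was lost without a variance trend (log2 fold change 2.54, adjusted p = 0.0641) and with robust variance priors (2.54, adjusted p = 0.0637), with adjusted p from 2.12e-05 upward in the others. TGM2 missed the threshold in all 16 (adjusted p = 0.0714 to 0.680) and had a log2 fold change of 0.032 under quantile normalization, the 1 alternative that turned its direction. The cause of these changes was not tested. With a replicate block 5481 genes and the same number of retinoid genes, 5, were called. Leaving out 1 sample gave 4929 to 6795 changed genes and 27 to 37 changed pathway genes. None of the 16 moved these totals by over 1.5 times, but counts of single lists did move that far. Without a variance trend the receptors and cofactors went from 8 changed genes to 4, and the oxidation enzymes from 7 to 4. Unfiltered, the receptors and cofactors had 5 and the transglutaminases 2 in place of 1, and the stricter filter left the latter 0. Quantile normalization gave 4 oxidation enzymes, 8 storage genes in place of 5 and 1 chemerin receptor in place of 0. The replicate block gave 2 breakdown genes in place of 1, as did leaving out control replicate 5. Depth limits CYP26B1 most, with 1 to 29 reads per sample.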
